A study of Mus musculus with 14 samples.

Results

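NADPH oxidase and antioxidant genes were followed in stem and progenitor cells of mouse bone marrow with and without the leukaemia fusion AML1-ETO. The 9 genes, Cybb, Cyba, Ncf1, Ncf4, Gsr, Txnrd1, Gpx1, Prdx1 and Cat, were taken by symbol from the 54532 gene lines of the count table. All 9 were found and all passed the filter on low counts in every comparison. The 14 libraries come from bone marrow of C57BL/6 mice sorted as granulocyte-monocyte progenitors (GMP) or as long-term haematopoietic stem cells (LT-HSC). The 4 groups were AML1-ETO LT-HSC (3 libraries), control LT-HSC (4), AML1-ETO GMP (3) and control GMP (4). AML1-ETO mice have the genotype Runx1-Runx1t1, which models the fusion gene of the t(8;21) translocation and is switched on by Mx1-Cre, and controls are labelled wild type. Both genotypes are listed as given poly(I:C) by intraperitoneal injection at 5 mg/kg in 4 doses, and this agent induces the Mx1 promoter and an interferon response. Mx1-Cre acts in many blood cell types and in other tissues, so the fusion is not limited to the sorted cells. Whether controls carried Mx1-Cre, the age and sex of the mice, the sort markers and the sequencing batches are not stated in the labels. The labels do not tie libraries to separate mice either, so that p-values reflect the spread among these libraries only, and part of it may be technical.

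The phagocyte NADPH oxidase passes electrons from NADPH across a membrane to oxygen and so makes superoxide, which myeloid cells use to kill microbes. Its core in the membrane is the pair of Cybb (gp91phox, NOX2) and Cyba (p22phox), and the cytosolic proteins Ncf1 (p47phox) and Ncf4 (p40phox) and a Rac GTPase are among those that join it on activation. Peroxide that follows from superoxide is removed by catalase (Cat), glutathione peroxidase (Gpx1) and peroxiredoxin (Prdx1), and Gsr and Txnrd1 use NADPH to recycle the glutathione and thioredoxin that these peroxidases spend. Stem cells in marrow are known for low levels of reactive oxygen, and myeloid progenitors for higher ones.

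In the mm10 build, with GENCODE M21 as the annotation, Cybb lies on chromosome X (9435252 to 9487771, minus strand), Cyba on chromosome 8 (122424776 to 122432930, minus strand), Ncf1 on chromosome 5 (134220053 to 134229625, minus strand) and Ncf4 on chromosome 15 (78244801 to 78262580, plus strand). Gsr lies on chromosome 8 (33652523 to 33698163, plus strand), Txnrd1 on chromosome 10 (82833951 to 82897712, plus strand), Gpx1 on chromosome 9 (108338903 to 108340343, plus strand), Prdx1 on chromosome 4 (116685544 to 116700822, plus strand) and Cat on chromosome 2 (103453849 to 103485160, minus strand). All 9 are protein-coding, and counts cover whole genes. Exons of Ncf1 share 408 bases with exons of Gtf2ird2 on the opposite strand. Without a stated strand setting, reads from that stretch cannot be told apart, and Gtf2ird2 held 313 to 935 counts a library. It held more counts than Ncf1 in every LT-HSC library (424 to 935, against 78 to 498 for Ncf1) and fewer in every GMP library. The limit thus falls most on the LT-HSC values of Ncf1, and its part in them was not tested.

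Promoter windows of 300 bases, 250 before and 50 from the start site on, were available from RefSeq (GRCm38.p6) for 7 of the 9 genes, all but Ncf4 and Gsr. They are shown for Cybb, whose level differed most between the genotypes in LT-HSC, and for the peroxiredoxin gene Prdx1. Capitals mark matches, searched on both strands, to TGTGGT, the core motif of RUNX1, to TGACNNNGC, the core of the antioxidant response element read by NRF2, and to GAGGAA, the core of the PU.1 motif. The Cybb window is chrX:9469275-9469574 on the minus strand, around a RefSeq start that lies inside the longer GENCODE span, and the Prdx1 window is chr4:116685349-116685648 on the plus strand.
Cybb: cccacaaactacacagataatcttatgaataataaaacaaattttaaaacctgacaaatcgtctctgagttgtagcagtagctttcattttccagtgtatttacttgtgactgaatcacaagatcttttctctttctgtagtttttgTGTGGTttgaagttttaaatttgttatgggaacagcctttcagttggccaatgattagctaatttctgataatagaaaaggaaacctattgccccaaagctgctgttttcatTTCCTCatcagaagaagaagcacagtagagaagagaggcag
Prdx1: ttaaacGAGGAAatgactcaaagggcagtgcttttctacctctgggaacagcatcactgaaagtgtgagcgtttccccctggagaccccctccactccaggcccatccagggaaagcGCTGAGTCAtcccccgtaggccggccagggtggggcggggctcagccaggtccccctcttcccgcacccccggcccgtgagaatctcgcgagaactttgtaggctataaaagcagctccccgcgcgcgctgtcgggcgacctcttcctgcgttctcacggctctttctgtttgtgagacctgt
In the Cybb window the RUNX letters start at −103 from the start site, and the PU.1 letters, read on the other strand as TTCCTC, start at 10. In the Prdx1 window the PU.1 letters start at −244 and the antioxidant letters, read on the other strand, at −133. Cybb was the only one of the 7 genes with the RUNX letters in a window, and Prdx1 and Txnrd1 were the ones with the antioxidant letters. Of 32851 mouse windows of the same length, 16.8% held the RUNX letters, 12.4% the antioxidant letters and 28.3% the PU.1 letters. These matches overlap no other of the 3 motifs and describe letters only, not binding.

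Libraries held 13210952 to 19403864 counts. Genes with any count numbered 16427 to 18106 in AML1-ETO LT-HSC, against 12106 to 15329 in control LT-HSC. In GMP they numbered 13473 to 14887 with AML1-ETO, against 18747 to 19508 in controls. Genes detected thus did not overlap between the genotypes and differed in opposite directions in the 2 cell types. The part of this in the differences between genotypes was not tested. Runx1t1, which the fusion transcript contains, was at 85.5, 164 and 125 CPM (counts relative to the TMM-scaled library total) in AML1-ETO LT-HSC, against 3.95, 0, 18.1 and 11.1 CPM in control LT-HSC. In GMP it was at 26.01, 26.3 and 45.6 CPM with AML1-ETO, against 2.62, 2.31, 1.69 and 2.73 CPM in controls, so no library went against its genotype label. Summed over 12 markers each, GMP markers stood at 21778 to 36330 CPM in the 7 GMP libraries, against 2039 to 2366 CPM in AML1-ETO LT-HSC and 131 to 540 CPM in control LT-HSC. Between these LT-HSC groups 7 of 11 GMP markers tested were called higher with AML1-ETO and 1 lower. LT-HSC markers stood at 49.4 to 560 CPM in GMP, against 607 to 1791 CPM in LT-HSC, the GMP value of 560 being that of AML1-ETO replicate 3. Some libraries stood apart in markers of other cells. B cell and plasma cell markers (12 genes) summed to 114 to 642 CPM in AML1-ETO LT-HSC, against 13097 to 76363 CPM in control LT-HSC, where replicate 2 was highest. Late neutrophil markers (11 genes) summed to 3771, 671 and 762 CPM in AML1-ETO GMP, against 67.0 to 91.1 CPM in control GMP, and erythroid markers (11 genes) to 4549, 63.8 and 1625 CPM, against 22.1 to 42.7 CPM. In LT-HSC the erythroid markers summed to 419 to 510 CPM with AML1-ETO, against 1014, 2778, 1590 and 2089 CPM in controls, and 6 of 11 were called lower with AML1-ETO and none higher. Eosinophil markers (9 genes) summed to 8419, 10876 and 3401 CPM in AML1-ETO GMP, against 1073 to 2633 CPM in control GMP, and to 11.8 to 15.8 CPM in AML1-ETO LT-HSC, against 4.70 to 98.7 CPM in control LT-HSC. Mast cell and basophil markers (12 genes) summed to 8709 to 11384 CPM in AML1-ETO LT-HSC, against 17.0 to 71.7 CPM in control LT-HSC, and to 1617 to 2814 CPM in AML1-ETO GMP, against 466 to 617.5 CPM in control GMP. In bulk samples such as these, fewer cells of a type and less RNA per cell cannot be told apart.

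**Figure D1:**
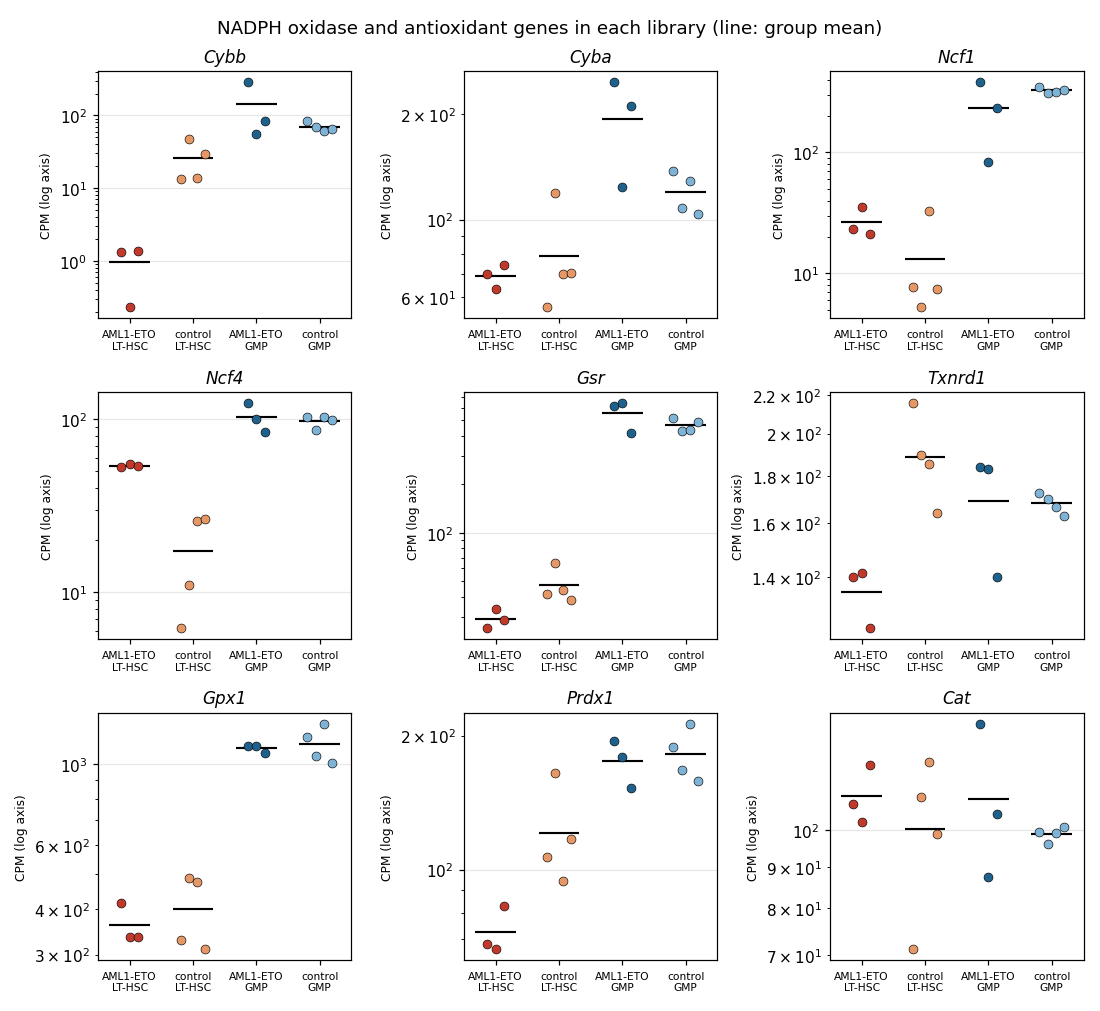
Level of each of the 9 genes in each library, in CPM on a log axis that differs in range between panels, for AML1-ETO LT-HSC (n = 3), control LT-HSC (n = 4), AML1-ETO GMP (n = 3) and control GMP (n = 4). Points are libraries and lines are group means. Cybb sits between 0.230 and 1.34 CPM in AML1-ETO LT-HSC, below all other libraries.

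In LT-HSC, Cybb and Ncf4 of the oxidase genes differed in opposite directions with AML1-ETO. Cybb fell 24.7-fold and Ncf4 rose 3.33-fold, while Cyba and Ncf1 did not pass the test, and no antioxidant gene did. The calls of Cybb and Ncf4 were both lost whichever AML1-ETO LT-HSC library was left out. Of the 9 genes, 2 were called at an adjusted p under 0.05 (edgeR's quasi-likelihood test with Benjamini-Hochberg adjustment over 14589 genes), against 12.3% of all genes tested. The groups did not overlap for 5 of the 9 genes, against 28.5% of all genes. The median log2 fold change was −0.09 over the 9 genes and 0.03 over all genes.

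Cybb, which encodes the electron-carrying subunit of the oxidase, was at 1.31, 0.230 and 1.34 CPM in AML1-ETO LT-HSC, or 22, 3 and 22 counts, against 13.4, 47.2, 13.85 and 29.0 CPM in control LT-HSC, or 230, 699, 212 and 427 counts. Every AML1-ETO library was lower than every control library, and control replicate 2 was the highest. The log2 fold change was −4.62 ± 0.85 (SE, adjusted p = 0.0120, edgeR; lower in 3 of 3 libraries). With each control library left out in turn the call held, and without control replicate 2 the value was −4.18 (adjusted p = 0.0335). It was not called without AML1-ETO replicate 1 (−4.92, adjusted p = 0.0573), replicate 2 (−4.16, adjusted p = 0.0564) or replicate 3 (−4.94, adjusted p = 0.0513). Control replicate 2 was also the library with the most B cell markers (76363 CPM, against 13097 to 17436 CPM in the other controls) and the most monocyte markers (289 CPM, against 133 to 188 CPM). Monocyte, macrophage and dendritic cell markers (13 genes) summed to 79.5 to 146 CPM in AML1-ETO LT-HSC and 133 to 289 CPM in control LT-HSC, where Csf1r and Siglech were at 0 in all 4 libraries. Of the 12 B cell and plasma cell markers, Ms4a1 and Igll1 were at 0 in all 3 AML1-ETO libraries. Late neutrophil markers (11 genes) summed to 46.5, 2.76 and 11.4 CPM in AML1-ETO LT-HSC, against 52.2 to 169 CPM in control LT-HSC. AML1-ETO replicate 2 was thus lowest for these markers and for Cybb, and 0 of 9 of the markers tested were called. Erythroid markers ordered the 4 control libraries as Cybb did, with replicate 2 highest, then 4, 3 and 1, and were lower in every AML1-ETO library. Mast cell and GMP markers were higher with AML1-ETO, as given above. The part of these other cells in the difference of Cybb was not tested.

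**Figure D2:**
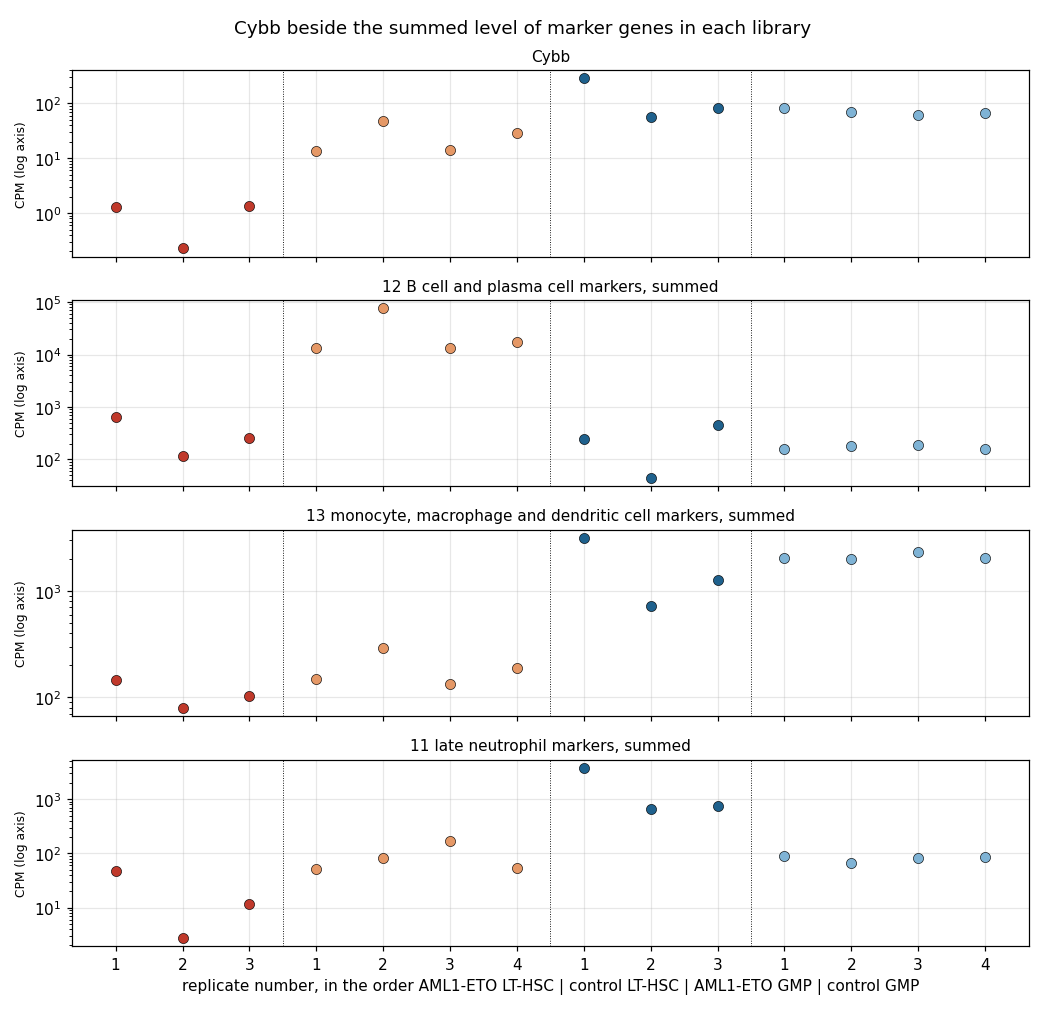
Cybb in each library, above the summed level of 12 B cell and plasma cell markers, 13 monocyte, macrophage and dendritic cell markers and 11 late neutrophil markers, all in CPM on log axes. Colours mark the 4 groups in the order given on the axis. The control LT-HSC library with the highest Cybb, replicate 2 at 47.2 CPM, is also highest of its group for the B cell markers, and AML1-ETO GMP replicate 1, at 287 CPM, is highest of its group for the monocyte and neutrophil markers.

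Cyba, the partner that stabilises Cybb in the membrane, was at 69.8, 63.3 and 74.4 CPM in AML1-ETO LT-HSC, against 56.3, 119, 70.0 and 70.3 CPM in control LT-HSC, and the groups overlapped. The log2 fold change was −0.09 ± 0.26 (adjusted p = 0.898).

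Ncf4, the cytosolic subunit that binds a membrane lipid of the phagosome, was at 53.0, 55.2 and 53.8 CPM in AML1-ETO LT-HSC, against 6.21, 11.1, 25.8 and 26.5 CPM in control LT-HSC. The AML1-ETO libraries lay close together and above every control, and the control libraries fell into a lower and a higher pair. The log2 fold change of 1.73 ± 0.48 was close to the threshold (adjusted p = 0.0489; higher in 3 of 3 libraries). It was not called without AML1-ETO replicate 1, 2 or 3 (adjusted p = 0.145, 0.167 and 0.131), nor without control replicate 2 (0.103) or 4 (0.0549), and the estimate stayed between 1.45 and 2.01 with each library left out in turn. Markers of GMP and of mast cells and basophils, for which 9 of 11 tested were called higher, also lay above every control in all 3 AML1-ETO libraries. Within the controls, GMP markers were highest in replicate 1 (540 CPM), where Ncf4 was lowest, and lowest in replicate 3 (131 CPM). Mast cell and basophil markers were lowest in control replicate 1 (17.0 CPM) and highest in control replicate 3 (71.7 CPM). The part of these markers in the Ncf4 difference was not tested.

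Ncf1, the organiser that brings the cytosolic subunits to the membrane, was at 23.3, 35.6 and 21.3 CPM in AML1-ETO LT-HSC, against 7.66, 5.26, 32.5 and 7.39 CPM in control LT-HSC. Control replicate 3 alone lay among the AML1-ETO libraries. The log2 fold change was 1.12 ± 0.66 (adjusted p = 0.349), and without control replicate 3 it was 2.06 (adjusted p = 0.0114). That library also had the most late neutrophil markers of the controls (169 CPM, against 52.2 to 81.0 CPM) and the lowest summed LT-HSC markers (607 CPM, against 1010 to 1791 CPM). Its mast cell markers were the highest of the controls (71.7 CPM), but its GMP markers (131 CPM, against 304 to 540 CPM) and eosinophil markers (4.70 CPM) were the lowest. It had the fewest genes with any count of all 14 libraries (12106). The part of these in its Ncf1 level was not tested.

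Of the antioxidant genes, Gsr, Txnrd1 and Prdx1 were below every control in all AML1-ETO LT-HSC libraries, and none passed the test. Prdx1, a thioredoxin-dependent peroxidase, was at 68.2, 66.4 and 83.0 CPM in AML1-ETO LT-HSC, against 107, 165, 94.5 and 117 CPM in control LT-HSC, a log2 difference of −0.65 ± 0.22 (adjusted p = 0.103). Gsr, which reduces oxidised glutathione, was at 25.6, 33.6 and 28.6 CPM in AML1-ETO LT-HSC, against 41.5, 64.8, 44.03 and 38.3 CPM in control LT-HSC, a log2 difference of −0.60 ± 0.27 (adjusted p = 0.202). Txnrd1, the cytosolic thioredoxin reductase, was at 140, 142 and 123 CPM in AML1-ETO LT-HSC, against 216, 190, 186 and 164 CPM in control LT-HSC, a log2 difference of −0.39 ± 0.17 (adjusted p = 0.187). For each of these 3 genes the gap between the nearest libraries of the groups was narrower than the range within the control group. DESeq2's Wald test called Prdx1 (adjusted p = 0.0285) and Txnrd1 (adjusted p = 0.0463), and Prdx1 was called by edgeR without control replicate 3 (adjusted p = 0.0479). With all 14 libraries in 1 edgeR fit, all 3 passed, Prdx1 at −0.74 (adjusted p = 0.0155), Txnrd1 at −0.49 (0.0240) and Gsr at −0.70 (0.0285).

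Gpx1, the main cytosolic glutathione peroxidase, was at 415, 336 and 334 CPM in AML1-ETO LT-HSC, against 328, 485, 473 and 311 CPM in control LT-HSC, and its log2 fold change was −0.04 ± 0.22 (adjusted p = 0.944). Cat, which splits hydrogen peroxide in peroxisomes, was at 108, 102 and 120 CPM in AML1-ETO LT-HSC, against 71.3, 110, 122 and 98.8 CPM in control LT-HSC, and its log2 fold change was 0.23 ± 0.20 (adjusted p = 0.568). The groups overlapped for both genes.

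In GMP, 0 of the 9 genes passed the test, against 9.43% of 13981 genes, and the groups overlapped for all 9, against groups apart for 26.7% of all genes. At an unadjusted p under 0.05 the count was 1, and DESeq2 called 1, in both cases Cyba. The median log2 fold change was 0.09 over the 9 genes and −0.03 over all genes. The AML1-ETO libraries differed among themselves, replicate 1 being highest of the 3 for 7 of the 9 genes and replicate 3 lowest for 5.

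Cybb was at 287, 55.9 and 82.9 CPM in AML1-ETO GMP, against 83.0, 68.3, 61.1 and 65.9 CPM in control GMP. AML1-ETO replicate 1 stood far above all other libraries, and the other two AML1-ETO libraries lay below or within the control range. The log2 fold change was 1.04 ± 0.49 (adjusted p = 0.242), and without AML1-ETO replicate 1 it was 0.01 (adjusted p = 0.988). Replicate 1 was also the AML1-ETO library with the most monocyte markers (3147 CPM, against 730 and 1278 CPM in the other two and 2008 to 2324 CPM in control GMP), late neutrophil markers (3771 CPM) and erythroid markers (4549 CPM), with eosinophil markers at 8419 CPM, and their part in its Cybb level was not tested.

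Cyba was at 247, 123 and 211 CPM in AML1-ETO GMP, against 137, 108, 129 and 104 CPM in control GMP. Replicates 1 and 3 lay above every control and replicate 2 within the control range. The log2 fold change was 0.72 ± 0.22 (adjusted p = 0.0919 with edgeR, 0.0197 with DESeq2), and without AML1-ETO replicate 2 it was 0.95 (adjusted p = 0.00821).

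Ncf1 was at 382, 84.0 and 232 CPM in AML1-ETO GMP, against 349, 310, 318 and 330 CPM in control GMP, with AML1-ETO libraries on both sides of the controls. Its log2 fold change was −0.47 ± 0.41 (adjusted p = 0.546), and without AML1-ETO replicate 1 it was −1.04 (adjusted p = 0.0932). Ncf4 was at 124, 99.9 and 84.8 CPM in AML1-ETO GMP, against 103, 86.9, 103 and 99.1 CPM in control GMP (0.09 ± 0.14, adjusted p = 0.763).

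Gsr was at 617, 642 and 415 CPM in AML1-ETO GMP, against 515, 428, 436 and 489 CPM in control GMP (log2 fold change 0.28 ± 0.16, adjusted p = 0.344), and without AML1-ETO replicate 3 the value was 0.44 (adjusted p = 0.0367). Txnrd1 was at 184, 183 and 140 CPM in AML1-ETO GMP, against 173, 170, 167 and 163 CPM in control GMP, and AML1-ETO replicate 3 was again the lowest. Gpx1 was at 1117, 1121.5 and 1068 CPM in AML1-ETO GMP, against 1187.5, 1052.5, 1287 and 1007 CPM in control GMP. Prdx1 was at 194, 179 and 152 CPM in AML1-ETO GMP, against 188, 167, 213 and 158 CPM in control GMP. Cat was at 135, 87.5 and 105 CPM in AML1-ETO GMP, against 99.4, 96.2, 99.2 and 101 CPM in control GMP. The log2 fold changes of these 4 genes lay between −0.03 and 0.16, with adjusted p of 0.572 to 0.927, and their signs other than that of Cat changed with the scaling.

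**Figure D3:**
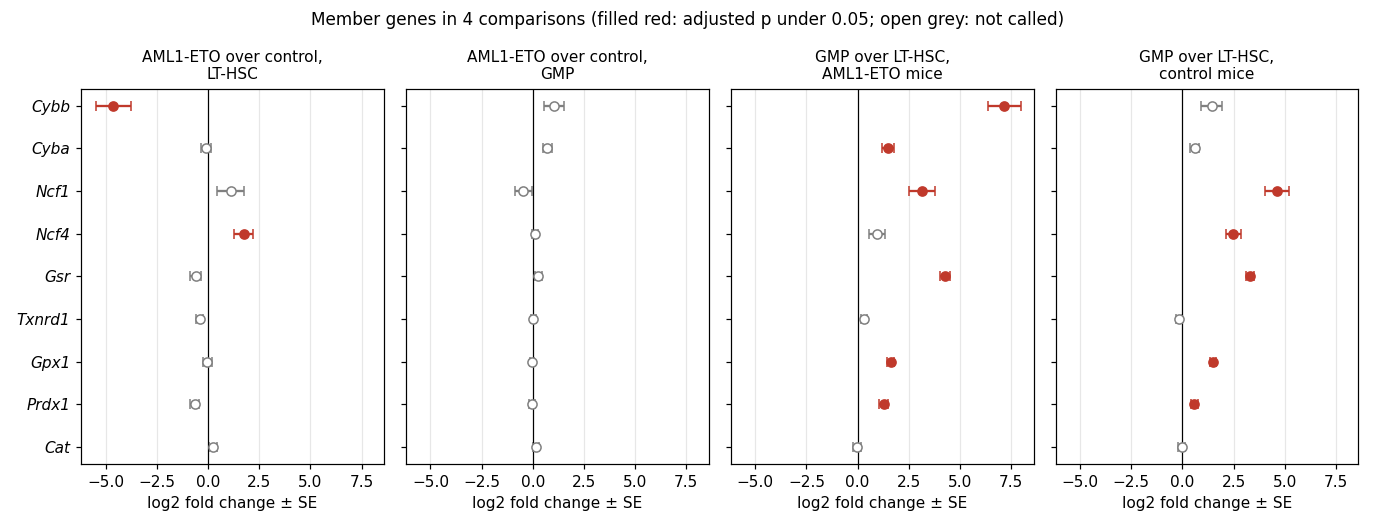
Log2 fold change with its SE for each of the 9 genes in 4 comparisons, from left to right AML1-ETO over control in LT-HSC, AML1-ETO over control in GMP, GMP over LT-HSC in AML1-ETO mice and GMP over LT-HSC in control mice. Filled red points had an adjusted p under 0.05. Cybb is at −4.62 for the genotypes in LT-HSC and 7.16 for the cell types in AML1-ETO mice, Gsr is at 4.25 and 3.30 for the cell types in AML1-ETO and control mice, and Cat lies near 0 in all 4.

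The AML1-ETO effect on Cybb differed between the cell types. The effect in GMP minus that in LT-HSC was 5.74 ± 0.89 on the log2 scale (adjusted p = 0.00267, edgeR, all 14 libraries), and 1 of the 9 genes was called for this difference, against 6.34% of all 16116 genes. The call held in 14 of 14 fits with 1 library left out, with values of 4.71 to 6.12, and the lowest was that without AML1-ETO GMP replicate 1. The markers of other cells that moved with Cybb in each cell type are given above, and their part in this difference was not tested. Gsr differed by 0.95 ± 0.28 (adjusted p = 0.0633), Ncf4 by −1.56 ± 0.52 (adjusted p = 0.0944) and Ncf1 by −1.498 ± 0.781 (adjusted p = 0.307). Each of these 3 passed the threshold in some fits with 1 library left out, Gsr in 3 (adjusted p = 0.0485, 0.0471 and 0.0332 without control LT-HSC replicate 1, control LT-HSC replicate 4 or AML1-ETO GMP replicate 3), Ncf4 in 3 (0.0450, 0.0418 and 0.0485 without replicate 1, 3 or 4 of control LT-HSC) and Ncf1 in 1 (−2.46, adjusted p = 0.0150, without control LT-HSC replicate 3). Prdx1 (0.69), Txnrd1 (0.50), Cyba (0.89), Gpx1 (0.11) and Cat (0.01) had adjusted p of 0.153 to 1.0 for the difference.

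Between the cell types, GMP had more of most of these transcripts than LT-HSC in both genotypes. In AML1-ETO mice 6 of the 9 genes were called, all higher in GMP, against 21.7% of all genes called and 12.6% called higher, and the groups did not overlap for 7 genes, against 41.8% of all genes. In control mice 5 of the 9 were called, all higher in GMP, against 24.5% called and 13.9% called higher, and the groups did not overlap for 5 genes, against 32.3%. The median log2 fold change of the 9 genes was 1.49 in AML1-ETO mice and 1.42 in control mice, and that of all genes 0 and 0.02. The 2 comparisons share 1 fit but no libraries.

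Of the 9 genes, Gsr had the smallest p-value in both genotypes. It averaged 558 ± 125 CPM in AML1-ETO GMP and 29.3 ± 4.0 CPM in AML1-ETO LT-HSC (SD, n = 3 each), or 4.25 ± 0.24 on the log2 scale (adjusted p = 4.33e-07). In control mice it averaged 467 ± 42 CPM in GMP and 47.1 ± 12 CPM in LT-HSC (SD, n = 4 each), or 3.30 ± 0.20 on the log2 scale (adjusted p = 5.21e-07). By p-value Gsr ranked 2 in AML1-ETO mice and 4 in control mice among 16116 genes, and both calls held with each library left out.

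Of the oxidase genes, Ncf1 rose in GMP of both genotypes. It averaged 233 ± 149 CPM in GMP and 26.7 ± 7.7 CPM in LT-HSC of AML1-ETO mice (3.12 ± 0.63, adjusted p = 0.00291), and 327 ± 17 CPM in GMP and 13.2 ± 12.9 CPM in LT-HSC of control mice (4.62 ± 0.59, adjusted p = 9.17e-05). Without control LT-HSC replicate 3 the value in control mice was 5.57 (adjusted p = 4.20e-06). Cybb averaged 142 ± 126 CPM in GMP and 0.962 ± 0.634 CPM in LT-HSC of AML1-ETO mice (7.16 ± 0.80, adjusted p = 4.18e-05), and without AML1-ETO GMP replicate 1 the value was 6.14 (adjusted p = 9.52e-05). In control mice Cybb averaged 69.6 ± 9.4 CPM in GMP and 25.8 ± 16.0 CPM in LT-HSC, did not overlap between them and missed the threshold (1.42 ± 0.53, adjusted p = 0.0624), and without control LT-HSC replicate 2 it was 1.88 (adjusted p = 0.0244). It also passed without AML1-ETO GMP replicate 1 (adjusted p = 0.0308) or 2 (0.0461), which enter that fit but not that contrast.

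Ncf4 averaged 103 ± 20 CPM in GMP and 54.0 ± 1.1 CPM in LT-HSC of AML1-ETO mice (0.93 ± 0.39, adjusted p = 0.105), and 97.9 ± 7.5 CPM in GMP and 17.4 ± 10.3 CPM in LT-HSC of control mice (2.49 ± 0.36, adjusted p = 0.000230). Cyba averaged 194 ± 63 CPM in GMP and 69.2 ± 5.6 CPM in LT-HSC of AML1-ETO mice (1.49 ± 0.28, adjusted p = 0.00182), and 119 ± 16 CPM in GMP and 78.9 ± 27.5 CPM in LT-HSC of control mice (0.59 ± 0.24, adjusted p = 0.0862). For these 2 genes the call thus differed between the genotypes, but the difference itself did not pass (adjusted p = 0.0944 for Ncf4 and 0.174 for Cyba). Ncf4 was also called in AML1-ETO mice without control LT-HSC replicate 1 (adjusted p = 0.0226), and Cyba in control mice without control LT-HSC replicate 2 (0.0100) or AML1-ETO GMP replicate 2 (0.0498), libraries that share the fit.

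Among the peroxidases, Gpx1 averaged 1102 ± 30 CPM in GMP and 362 ± 46 CPM in LT-HSC of AML1-ETO mice (1.61 ± 0.19, adjusted p = 6.27e-05), and 1133.5 ± 128 CPM in GMP and 399 ± 93 CPM in LT-HSC of control mice (1.498 ± 0.165, adjusted p = 3.13e-05). Prdx1 averaged 175 ± 21 CPM in GMP and 72.5 ± 9.1 CPM in LT-HSC of AML1-ETO mice (1.27 ± 0.21, adjusted p = 0.000616), and 182 ± 24 CPM in GMP and 121 ± 31 CPM in LT-HSC of control mice (0.58 ± 0.18, adjusted p = 0.0279). The control call of Prdx1 was lost without control LT-HSC replicate 1, 3 or 4 (adjusted p = 0.0677, 0.0648 and 0.0581), without control GMP replicate 1 or 3 (0.0787 and 0.0933), and with other scalings. Txnrd1 differed by 0.32 ± 0.15 in AML1-ETO mice (adjusted p = 0.135, and 0.0432 without AML1-ETO GMP replicate 3) and by −0.17 ± 0.13 in control mice (adjusted p = 0.361), and Cat by −0.01 ± 0.20 (adjusted p = 0.982) and −0.03 ± 0.17 (adjusted p = 0.940). Cat thus had means of 98.9 to 110 CPM in all 4 groups.

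Per kilobase of exon, Gpx1 was the most abundant of the 9 transcripts in every group, with 765 ± 21 RPKM in AML1-ETO GMP, 787 ± 89 RPKM in control GMP, 251.1 ± 32.1 RPKM in AML1-ETO LT-HSC and 277 ± 64 RPKM in control LT-HSC (SD, n = 3 or 4). In GMP of both genotypes Gsr and Cyba came next, at 203 ± 45 and 187 ± 61 RPKM with AML1-ETO, where they did not differ beyond their spread, and at 170 ± 15 and 115 ± 15 RPKM in controls. In LT-HSC Cyba was second in both genotypes (66.6 ± 5.4 RPKM with AML1-ETO and 75.9 ± 26.4 RPKM in controls), and Gsr had rank 7 of the 9 with AML1-ETO and rank 6 in controls. Cybb was the lowest in AML1-ETO LT-HSC, at 0.166 ± 0.109 RPKM, and in control LT-HSC Cybb (4.45 ± 2.75 RPKM) and Ncf1 (3.61 ± 3.53 RPKM) shared the lowest place within their spread. In control LT-HSC, Prdx1 (39.7 ± 10.1 RPKM) and Cat (38.4 ± 8.2 RPKM) likewise did not differ beyond their spread.

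Of all 9 genes, Cybb and Ncf1 reached the widest spread within a group. The highest library exceeded the lowest 5.84-fold for Cybb in AML1-ETO LT-HSC, where the lowest had 3 counts, 5.13-fold for Cybb and 4.55-fold for Ncf1 in AML1-ETO GMP, and 6.18-fold for Ncf1 in control LT-HSC. In control GMP the same ratio was at most 1.36 for any of the 9 genes.

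Profiles over the 14 libraries were compared by the root mean squared difference of centred log2 CPM among 13628 genes. The closest to Cybb were Ctsh (0.89), which encodes a lysosomal protease, Anxa2 (1.01), a membrane-binding annexin, and Lgals1 (1.04), a galectin, against a spread of Cybb about its own mean of 2.66. Ctsh averaged 1.68 ± 1.31 CPM in AML1-ETO LT-HSC and 19.5 ± 5.9 CPM in control LT-HSC, and 84.0 ± 67.8 CPM in AML1-ETO GMP and 58.6 ± 8.9 CPM in control GMP. This is the order of groups of Cybb, but Ctsh was picked for its likeness over these same libraries. In GMP, Anxa2 had the order of Cybb (143 ± 46 CPM with AML1-ETO, 109 ± 10 CPM in controls). Lgals1 had the other order (152 ± 114 CPM with AML1-ETO, 299 ± 52 CPM in controls). The closest to Ncf4 were Themis2 (0.44), Nt5dc2 (0.54) and Gng12 (0.54), against its own spread of 1.26. These are descriptions over libraries that share cell type and genotype.

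Around the 9 genes, 87 other genes of the pathway were followed in 6 lists, from oxidase partners to genes of NADPH supply. In LT-HSC 7 of 76 tested rose and 7 fell with AML1-ETO, against 7.59% of all genes called higher and 4.69% called lower. The median log2 fold change of the 76 was −0.18, against 0.03 over all genes. Without AML1-ETO LT-HSC replicate 2 the count of 14 dropped to 1, and without control LT-HSC replicate 1 it was 18. The markers of GMP, mast cells, B cells and erythroid cells that differed between these groups are given above, and their part in the changes of the lists was not tested.

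Of the other oxidase genes, Rac2, the Rac GTPase of blood cells, rose by 0.92 ± 0.20 on the log2 scale (481 ± 10 CPM in AML1-ETO LT-HSC and 272 ± 64 CPM in control LT-HSC, adjusted p = 0.0244), and Rac1 by 0.68 ± 0.18 (adjusted p = 0.0415). Rac2 was called in 4 of 7 fits with 1 library left out and Rac1 in 1 of 7, both being lost without any one AML1-ETO library and Rac1 also without control replicate 1, 3 or 4. The other 5 tested genes of the list of 15 were not called, against 7.59% of all genes called higher and 4.69% called lower. The median of the 7 was 0.85, against 0.03 over all genes. Nox3 and the Duox and Duoxa genes, homologues of the oxidase and their maturation factors, were at 0 in all 14 libraries.

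In the thioredoxin and peroxiredoxin list, 4 of 14 genes fell and 1 rose in AML1-ETO LT-HSC, with a median of −0.54. Over all genes tested, 4.69% were called lower and 7.59% higher, with a median of 0.03. Txnrd3, a thioredoxin reductase, fell by 1.37 on the log2 scale (adjusted p = 0.0185), and the peroxidases Prdx6 and Prdx2 fell by 1.20 (adjusted p = 0.0328) and 1.05 (adjusted p = 0.0342). Mitochondrial Txn2 fell by 0.75 (adjusted p = 0.0429), and Prdx5, a peroxidase of mitochondria and peroxisomes, rose by 0.99 (adjusted p = 0.0195). Each was called in 2 to 4 of 7 fits with 1 library left out, and all 5 were lost without AML1-ETO replicate 2. Prdx2 was also lost without AML1-ETO replicates 1 and 3 and control replicate 4, Prdx6 without AML1-ETO replicate 3 and control replicate 4, Prdx5 without AML1-ETO replicate 1 and control replicate 4, Txnrd3 without AML1-ETO replicates 1 and 3, and Txn2 without all of AML1-ETO replicates 1 and 3 and control replicates 2 and 3 in turn. In the glutathione list 1 of 19 rose, Mgst2, a microsomal transferase (1.88 ± 0.34, adjusted p = 0.0109), and 1 fell, the transferase Gstp1 (−1.05 ± 0.22, adjusted p = 0.0193). Both were lost without AML1-ETO replicate 1 or 2, and Gstp1 without replicate 3 too.

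Among the 13 genes of the NADPH supply list, not all of which make NADPH themselves, 2 fell in AML1-ETO LT-HSC and none rose. Over all genes tested, 4.69% were called lower and 7.59% higher. The median was −0.54, against 0.03 over all genes. Mthfd2, the mitochondrial folate enzyme, averaged 3.49 ± 1.24 CPM in AML1-ETO LT-HSC and 25.4 ± 11.8 CPM in control LT-HSC (−2.77 ± 0.62, adjusted p = 0.0243). Mthfd1, its cytosolic counterpart, averaged 45.2 ± 3.4 CPM in AML1-ETO LT-HSC and 289 ± 118 CPM in control LT-HSC (−2.58 ± 0.38, adjusted p = 0.00581). The Mthfd1 call was lost without AML1-ETO replicate 2 (adjusted p = 0.0525), and that of Mthfd2 without any one AML1-ETO library or control replicate 4. G6pdx, which opens the pentose phosphate route to NADPH, averaged 39.3 ± 5.1 CPM in AML1-ETO LT-HSC and 71.7 ± 13.9 CPM in control LT-HSC and missed the threshold (−0.77 ± 0.22, adjusted p = 0.0556).

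Of 20 NRF2 and FOXO genes, 3 were called higher in AML1-ETO LT-HSC and none lower, against 7.59% of all genes called higher and 4.69% called lower. The median was 0.30, against 0.03 over all genes. Foxo3, a transcription factor that drives antioxidant genes in stem cells, averaged 424 ± 43 CPM in AML1-ETO LT-HSC and 166 ± 43 CPM in control LT-HSC (1.44 ± 0.22, adjusted p = 0.00603), and its call held in 7 of 7 fits with 1 library left out. Sesn1, a stress-response gene that FOXO factors and p53 switch on, rose by 1.14 ± 0.20 (adjusted p = 0.0103; lost without AML1-ETO replicate 2). Sqstm1, an autophagy receptor that binds KEAP1, rose by 2.60 ± 0.51 (adjusted p = 0.0150; lost without AML1-ETO replicate 1, where it was 1.85, without AML1-ETO replicate 2 or without control replicate 4), with 1716 ± 1277 CPM in AML1-ETO LT-HSC and 304 ± 77 CPM in control LT-HSC. DESeq2's Wald test called 5 of the list, Foxo3, Sesn1, Sqstm1, Park7 and Nqo1. Nqo1 was at 0.537 to 2.02 CPM in AML1-ETO LT-HSC, below every control (5.40 to 21.6 CPM), and was not called by edgeR. Nfe2l2, which encodes NRF2, differed by 0.29 ± 0.26 (adjusted p = 0.585), Keap1, its inhibitor, by 0.06 ± 0.33 (adjusted p = 0.948), and the thioredoxin inhibitor Txnip by 0.78 ± 0.46 (adjusted p = 0.355). The superoxide dismutases Sod1 (−0.18 ± 0.17, adjusted p = 0.610) and Sod2 (−0.40 ± 0.23, adjusted p = 0.340) were not called. In their list of 4 genes, 0 of 3 tested passed with edgeR, 0 had an unadjusted p under 0.05 and DESeq2 called 0.

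**Figure D4:**
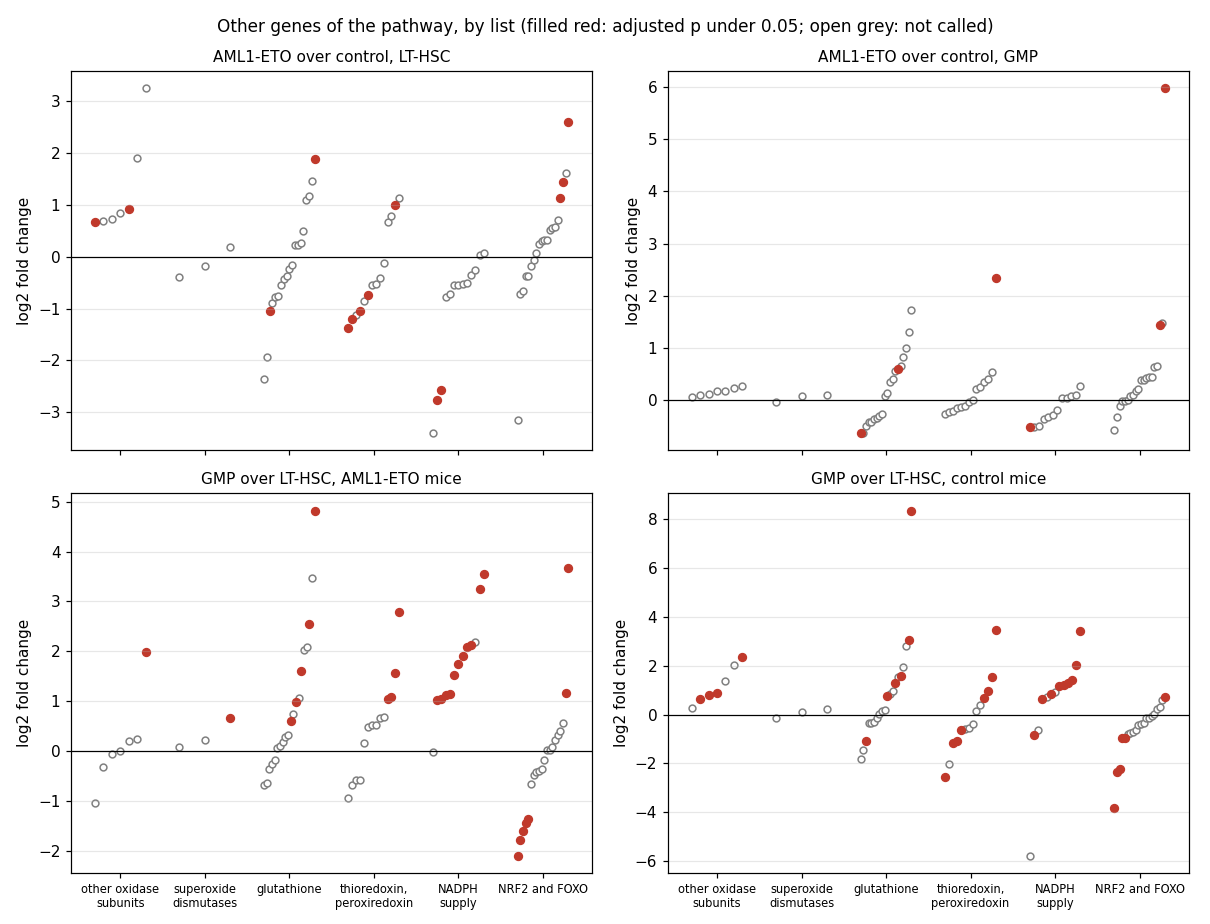
Log2 fold change of the other pathway genes that were tested, 76 in each comparison of genotypes and 77 in each comparison of cell types, one point a gene, ordered by value within each of 6 lists. Filled red points had an adjusted p under 0.05, and the range of the vertical axes differs between panels. In the upper panels 14 genes in LT-HSC and 6 in GMP are filled, and in the lower panels, where GMP is over LT-HSC, 11 NADPH-supply genes lie above 0 as filled points in AML1-ETO mice and 8 in control mice.

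In GMP, 4 of 76 pathway genes rose with AML1-ETO and 2 fell, against 5.47% of all genes called higher and 3.96% called lower. Hmox1, the haem-degrading target of NRF2, ranged from 25.4 to 436 CPM and averaged 180 ± 223 CPM in AML1-ETO GMP and 2.89 ± 1.47 CPM in control GMP (5.98 ± 0.98, adjusted p = 0.0159), and Txnip rose by 2.33 ± 0.39 (adjusted p = 0.0172). Hmox1 was at 4.17 without AML1-ETO replicate 1 (adjusted p = 0.00778), the library with the most monocyte, late neutrophil and erythroid markers of the AML1-ETO GMP group, and Txnip at 1.63 without AML1-ETO replicate 3 (adjusted p = 0.00932). The part of these markers, or of the eosinophil and mast cell markers, was not tested. Sqstm1 rose in GMP as well (1.44 ± 0.14, adjusted p = 0.00386) and was called in 7 of 7 fits with 1 library left out. Gpx4, the lipid peroxide reductase, rose by 0.60 ± 0.12 (adjusted p = 0.0238), Gsto1, a glutathione transferase, fell by 0.63 (adjusted p = 0.0152), and Mthfd1 fell by 0.52 (adjusted p = 0.0262). Without any one of the 4 control GMP libraries, Sqstm1 alone of the 6 was called, and with an AML1-ETO library left out the count was 10 to 15. None of the 7 tested oxidase partners was called in GMP, where 1 had an unadjusted p under 0.05 and DESeq2 called 2, and 0 of 3 superoxide dismutase genes were called, with 0 at an unadjusted p under 0.05 and 0 by DESeq2. Nfe2l2 (0.44 ± 0.19, adjusted p = 0.200), Keap1 (−0.0030 ± 0.1433, adjusted p = 0.994), Sod1 (−0.04 ± 0.16, adjusted p = 0.909) and Sod2 (0.08 ± 0.12, adjusted p = 0.742) were not called.

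Between the cell types, the NADPH supply list had the most calls for its size. Pgls, Tkt, Taldo1, Nadk and Nadk2 in this list do not themselves make NADPH. In AML1-ETO mice 11 of the 13 genes were higher in GMP than in LT-HSC and none lower, with a median log2 fold change of 1.75. In control mice 8 of 13 were higher and 1 lower, with a median of 0.92. G6pdx averaged 166 ± 21 CPM in GMP and 39.3 ± 5.1 CPM in LT-HSC of AML1-ETO mice (2.08 ± 0.18, adjusted p = 8.87e-06), and 164 ± 9 CPM in GMP and 71.7 ± 13.9 CPM in LT-HSC of control mice (1.19 ± 0.16, adjusted p = 0.000110). Over all 6 lists, 24 of 77 genes were higher and 5 lower in GMP of AML1-ETO mice, against 12.6% and 9.15% of all genes, and 22 were higher and 11 lower in control mice, against 13.9% and 10.6%. For the difference of the AML1-ETO effect between the cell types, 5 of 77 were higher in GMP and 2 lower, against 3.43% and 2.91% of all genes. The 5 were Prdx2 (1.15), G6pdx (0.89), Nadk2 (0.85), Mthfd1 (2.14) and Mthfd2 (2.34), and the lower ones were Foxo3 (−1.15) and Slc7a11, the cystine carrier. Slc7a11 was at 0 in all 4 control LT-HSC libraries, so its fitted value is not given. Without AML1-ETO LT-HSC replicate 2 the 7 calls dropped to 1, and without control LT-HSC replicate 3 they were 13. With a replicate block, which joins same-numbered libraries of the 2 cell types within each genotype, the count of 7 was 1. Cybb was called for the difference with this block (5.46, adjusted p = 0.00244).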

How the data were processed

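RNA was sequenced from 14 libraries of mouse bone marrow LT-HSC and GMP. The SMART-Seq v4 and SMARTer Stranded kits are named per the labels' protocols, and HISAT2 2.0.5, featureCounts 1.5.0-p3 and mm10 per the submitters' processing notes, without roles. The authors deposited 1 table of raw whole-number counts. No strand setting or annotation release is given in the sources used here. The table has 54532 lines, of which 105 repeat a symbol, none is without a symbol, and 98.8% of the symbols are in GENCODE M21, from which exon lengths for RPKM were taken. 1 list gene whose symbol is repeated was left out. Totals were 13210952 to 19403864 counts. Replicates differed by 9.20 to 216 in chi-square per gene, far above counting noise. The range was 9.20 to 15.9 in control GMP and 86.6 to 216 in control LT-HSC. With AML1-ETO it was 106 to 113 in GMP and 35.0 to 75.7 in LT-HSC.

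Counts were tested in R 4.3.3 with edgeR 4.0.16 (filterByExpr, TMM, quasi-likelihood F test, two-sided). P-values were adjusted by Benjamini-Hochberg over every gene tested, with a call at an adjusted p under 0.05. The genotypes were compared within each cell type on 7 libraries. The cell types, and the difference of the AML1-ETO effect, used 1 fit of all 14 libraries. That fit shares 1 estimate of the spread per gene over groups whose spread differed, so its SEs are not those of the compared groups alone. SEs are the log2 fold change divided by the root of F. CPM used TMM-scaled totals over all 14 libraries, and profiles used log2 CPM with a prior count of 2 in genes averaging 20 counts or more. Named pathway genes are those called in a comparison of genotypes, largest first, and Sod1, Sod2, Nfe2l2, Keap1 and Txnip whatever their result; a further gene of that rule is not reported here. The genes of the difference were added in the same way after their values were seen, and so were Nqo1 and Park7. The 9 genes and the lists were chosen with earlier results of these data known.

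Alternatives were DESeq2 1.42.0 (its size factors in edgeR, and its Wald test), upper-quartile scaling, no filter, a replicate block, all 14 libraries in 1 fit, and each library left out. Deviations from the group means over 13628 genes correlated at 0.107, 0.177 and 0.128 between same-numbered AML1-ETO GMP and LT-HSC libraries. Differently numbered pairs of these groups had −0.105 to −0.0284, but differently numbered control libraries reached 0.120 (GMP replicate 3, LT-HSC replicate 2). The labels give only a replicate number, so whether these numbers pair the samples cannot be told. The block changed no call of the 9 genes between the cell types in AML1-ETO mice. The difference of the AML1-ETO effect holds these same-numbered libraries too. Between the genotypes, and between the cell types in control mice, same-numbered libraries had correlations of −0.0869 to 0.0402. The fits were also run on simulated data with known fold changes. These data had the same dispersion for every gene and group, so they do not show how the fits perform under the unequal spread of these libraries.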

Additional observations from a re-analysis of the deposited data

Results flagged for a closer look

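Ncf1 in control LT-HSC had 1 library far from the other 3 of its group: replicate 3 was at 32.5 CPM, the others at 5.26 to 7.66 CPM, and the gap took up a share of 0.912 of the group's range, above Dixon's critical value for 4 libraries. Of 18 groups of 4 libraries checked this way over the 9 genes, 1 stood out, and chance alone gives about 0.9.

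The AML1-ETO effect on Cybb differed between the cell types by 5.74 on the log2 scale (adjusted p = 0.00267, edgeR, GMP minus LT-HSC, all 14 libraries). The separate fits of 7 libraries for each cell type gave a change of 1.04 in GMP and −4.62 in LT-HSC.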

How the results depend on the processing

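Of the values of the 9 genes under the alternatives, 665 kept their direction and their side of the threshold, 28 passed it where the reported value did not, 22 no longer passed it and 32 changed sign, none of the last being a called value. In LT-HSC the 2 calls became 1 with DESeq2 size factors, 1 with upper-quartile factors, 1 without the filter, 4 with DESeq2's Wald test, 5 with all 14 samples in the fit and 0 with the replicate block, and ran from 0 to 4 with 1 library left out. Ncf4 was the call lost with DESeq2 size factors (adjusted p = 0.0549), upper-quartile factors (0.0634) and no filter (0.0572), and the block lost Cybb too (0.104, against 0.0733 for Ncf4). The 14 pathway calls in LT-HSC became 25 (DESeq2's Wald test), 4 (block), 27 (all 14 samples) and 1 to 18 (leave-one-out). In GMP the 0 calls of the 9 genes became 1 with DESeq2's Wald test and 0 to 1 with a library left out, and the 6 pathway calls became 19, 2 with the block, 2 with all 14 samples, and 1 to 15. For the difference, the 1 call became 3 with DESeq2's Wald test and 1 to 3 with a library left out, and the 7 pathway calls became 17, 4 without the filter, 1 with the block, and 1 to 13. Between cell types the counts stayed within 1.5 times, with 6 to 7 of the 9 genes and 23 to 32 pathway genes in AML1-ETO mice with a library left out, and 4 to 7 and 26 to 40 in control mice. In control mice the block called Cybb (adjusted p = 0.0166) and lost Prdx1 (0.0704), which DESeq2 size factors (0.0902), upper-quartile factors (0.0722) and DESeq2's Wald test (0.0670) lost too. Same-numbered libraries of the 2 genotypes, and of the 2 cell types in control mice, had correlations of −0.0869 to 0.0402. Batches are not stated in the labels, so whether these numbers mark shared handling cannot be told. Whether a call lost under the block in these comparisons reflects a weaker effect was not tested. The cause of these changes was not tested.

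Signs changed for uncalled values near 0. In GMP, Gpx1 became 0.0121 and 0.0140 and Prdx1 0.00042 and 0.0023 with DESeq2 size factors and DESeq2's Wald test, and Txnrd1 −0.0143 with upper-quartile factors. The difference for Cat became −0.00043 without the filter and −0.0331 with the block. With a library left out, values ran in LT-HSC from −0.162 to 0.0493 (Gpx1) and −0.23 to 0.16 (Cyba), and in GMP from −0.0743 to 0.204 (Ncf4), −0.0490 to 0.136 (Txnrd1), −0.0325 to 0.288 (Cat), −0.0704 to 0.0457 (Gpx1) and −0.124 to 0.0514 (Prdx1). For Cat they ran from −0.19 to 0.13 between cell types in AML1-ETO mice, from −0.165 to 0.0632 in control mice and from −0.17 to 0.15 for the difference, and for Gpx1 from −0.0145 to 0.215 for the difference.

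Scaling moved the median of all genes by −0.135 (upper-quartile, LT-HSC), −0.148 and −0.108 (DESeq2 and upper-quartile factors, cell types in control mice) and −0.105 (upper-quartile, cell types in AML1-ETO mice). Of the genes called, 61.8% were higher in AML1-ETO LT-HSC, against 51.7% with upper-quartile factors and 47.0% with DESeq2's Wald test. In control mice 56.9% were higher in GMP, against 44.9% with DESeq2 factors, 47.4% with upper-quartile factors and 41.6% with the Wald test, and in AML1-ETO mice 57.9%, against 48.5% with upper-quartile factors and 47.4% with the Wald test. With 3 and 4 libraries a group, differences under the spread between libraries are not detectable, and AML1-ETO LT-HSC holds 47 counts of Cybb in all.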
